A study of Mus musculus with 59 samples.

Results

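The genes *Hr*, *Slco4a1*, *Desi1*, *Trp53inp2* and *Hcn2* were followed in mouse brown adipose tissue (BAT) in response to thyroid hormone, cold and diet. These 5 genes, of 55341 listed in each count table, were selected on their induction after hormone treatment in these data, so their hormone response in wild-type (WT) mice is a description without a test. All 59 mice were C57BL/6J males of 8 to 12 weeks, each with its own RNA-seq library. In the hormone experiment, mice were made hypothyroid with propylthiouracil (PTU), which blocks thyroid hormone synthesis, and then given an injection of T3 and T4 (TH). WT mice were taken under PTU alone and 3 h, 6 h, 12 h and 24 h after TH, with 4 mice in each of these 5 groups, and BATKO mice were taken under PTU alone and 24 h after TH, with 5 mice in each group. In the temperature experiment, mice spent 24 h at 4 °C (3 CTRL and 4 BATKO mice) or at 30 °C (4 CTRL and 5 BATKO mice). In the diet experiment, mice received a high-fat diet (HFD, 4 CTRL and 3 BATKO mice) or chow (4 CTRL and 2 BATKO mice) for 3.5 days. The genetic change carried by BATKO mice is not given in the sources used here. The Cre driver and the cells affected are not given either, and CTRL mice are named only as the controls of BATKO mice.

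T3 acts through its nuclear receptors TRα1 and TRβ, which bind DNA mostly as heterodimers with RXR and switch from corepressors to coactivators when T3 is bound. In BAT, the tissue of non-shivering thermogenesis, T3 acts together with noradrenaline, and cold raises the local conversion of T4 to T3 by the deiodinase encoded by *Dio2*. *Hr* encodes HAIRLESS, a corepressor that binds TR and is among the best known T3 target genes. *Slco4a1* encodes a membrane transporter of organic anions, thyroid hormones included. *Trp53inp2* encodes a regulator of autophagy which also acts as a coactivator of TR. *Desi1* encodes an isopeptidase that removes SUMO from proteins. *Hcn2* encodes a cation channel opened by hyperpolarization and modulated by cAMP.

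In GENCODE's annotation of GRCm38, *Hr* lies on chromosome 14 (70552212 to 70573548, plus strand) and *Slco4a1* on chromosome 2 (180456245 to 180474867, plus strand). *Trp53inp2* is also on chromosome 2 (155381059 to 155389850, plus strand), and *Hcn2* is on chromosome 10 (79716634 to 79736108, plus strand). *Desi1*, on chromosome 15 (81992523 to 82033862, minus strand), lies wholly within *Xrcc6*, a DNA repair gene on the opposite strand, and 344 bp of their exons overlap. Since the strand setting of the counting is not given, reads from these 344 bp cannot be assigned to either gene with certainty.

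Promoter sequences from RefSeq (GRCm38.p6) were matched for 4 of the 5 genes, with 2 starts for *Slco4a1*. The RefSeq starts of *Hcn2* and the upstream one of *Slco4a1* fall on the GENCODE start of the gene, whereas those of *Trp53inp2* and *Desi1* and the downstream one of *Slco4a1* lie 797, 17642 and 4733 bases inside it. All 250 bases of the *Desi1* window and 42 of the *Trp53inp2* window are exonic in GENCODE's annotation. The 250 bases upstream of each start were searched on both strands for the hexamer AGGTCA, which each partner of the TR/RXR heterodimer recognizes, for the direct repeat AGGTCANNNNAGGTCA, and for TGACGTCA, the cAMP response element. Of 32851 promoters, 14.0% held the hexamer, 0.0152% the repeat and 1.55% the cAMP response element. The hexamer was found 2 times upstream of *Hcn2* and 1 time upstream of the downstream start of *Slco4a1*, whereas the repeat was found in none of the 5 windows. A cAMP response element was found in the window of *Trp53inp2*, 34 to 41 bases before its RefSeq start. This place is inside the gene as GENCODE annotates it, and may lie within an exon. The 3 windows with a match are shown. Capitals mark the matches (TGACCT is the hexamer on the other strand), and a match is a description of letters, not a site of binding. The windows are chr10:79716384-79716633 for *Hcn2*, chr2:180460728-180460977 for *Slco4a1* and chr2:155381606-155381825 for *Trp53inp2*, all on the plus strand and written 5′ to 3′. The last of these is 220 bases long, of which 12 are exonic in GENCODE's annotation.

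Hcn2: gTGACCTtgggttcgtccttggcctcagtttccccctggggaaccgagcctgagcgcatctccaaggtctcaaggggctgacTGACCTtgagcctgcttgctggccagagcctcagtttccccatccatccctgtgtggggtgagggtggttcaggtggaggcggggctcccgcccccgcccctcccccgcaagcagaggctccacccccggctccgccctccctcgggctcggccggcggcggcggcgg

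Slco4a1: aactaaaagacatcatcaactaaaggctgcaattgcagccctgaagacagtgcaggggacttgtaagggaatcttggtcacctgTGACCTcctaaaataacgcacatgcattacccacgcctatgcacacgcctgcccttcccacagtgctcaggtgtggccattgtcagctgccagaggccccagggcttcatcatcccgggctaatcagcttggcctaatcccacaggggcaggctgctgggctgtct

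Trp53inp2: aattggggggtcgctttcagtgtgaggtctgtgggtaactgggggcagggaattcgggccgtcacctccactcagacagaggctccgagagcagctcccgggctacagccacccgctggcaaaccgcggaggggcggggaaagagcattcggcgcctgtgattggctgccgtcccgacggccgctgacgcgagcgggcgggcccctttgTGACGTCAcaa

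The gene counts of a mouse summed to between 7612059 and 18073627, of which 39.2 to 55.7% were mitochondrial. BATKO mice of the hormone experiment had 13593987 to 18073627 reads and WT mice had 7805938 to 14615534, so that genotype and depth almost coincided there. Levels are given below as CPM, counts scaled to the library size after TMM normalization within each experiment, and levels in different experiments were normalized separately. The brown fat marker *Ucp1* was high in every group, from 146 CPM in the lowest CTRL mouse at 30 °C to 17186 CPM in the highest CTRL mouse at 4 °C. Markers of skeletal muscle varied widely between mice of the same group. The summed CPM of the 6 muscle markers, all with counts, ranged from 0.870 to 7710 in BATKO mice at 30 °C and from 0.639 to 4357 in CTRL mice at 30 °C. Their part in the results was not tested. In bulk tissue, fewer cells of a type cannot be told apart from less RNA per cell.

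In WT mice, the 5 genes were higher after TH than under PTU at all 4 time points, with mean fold changes at 24 h from 1.95 for *Trp53inp2* to 135 for *Slco4a1*. At 24 h all 5 lay above PTU without overlap, as did 14.3% of all genes tested, which is a description since this contrast chose them. Among WT time points, the share over all genes was taken for this contrast only. Other separations between WT groups given below thus have no such share beside them. Other genes differed over the same time. The summed CPM of the 4 general adipocyte markers was 7634 to 8904 under PTU and 3617 to 3897 at 24 h, and that of the 7 brown adipocyte markers was 6289 to 8520 and 8719 to 16425. The clock genes *Dbp* and *Arntl* differed between time points, with *Dbp* at 0.383 to 5.77 CPM under PTU, 23.3 to 62.2 CPM at 6 h and 4.39 to 7.05 CPM at 24 h, and *Arntl* at 6.91 to 16.5, 0.923 to 2.56 and 12.1 to 17.6 CPM. Their part in the course of the 5 genes was not tested. *Slco4a1* was almost undetected under PTU, with 3, 1, 4 and 3 reads in the 4 mice. At 3 h it was at 15.8, 8.26, 5.32 and 16.7 CPM, and at 24 h the 4 mice lay in a narrow range of 28.2 to 32.6 CPM. Summed over the mice of a group, the ratio to PTU was 54.9 at 3 h (95% interval 30.5 to 111) and 142 at 24 h (78.9 to 284), intervals that cover counting error only. All mice at 6, 12 and 24 h were above all mice at 3 h, and the groups at 6 h (25.96 ± 3.28, SD, n = 4) and 12 h (25.7 ± 2.96) did not differ beyond their spread.

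*Hr* was at 0.690, 1.00, 1.01 and 1.41 CPM under PTU and at 10.2, 18.0, 13.7 and 7.71 CPM at 3 h. It was at 9.998 ± 2.55 CPM (SD, n = 4) at 6 h and at 12.4 ± 3.50 CPM at 12 h, so these 3 time points overlapped. At 24 h it reached 21.0, 21.5, 24.6 and 30.4 CPM, above every mouse of the earlier groups. The log2 fold change against PTU was 3.57 (SE 0.31) at 3 h and 4.57 (SE 0.31) at 24 h, and the profile of *Hr* was thus a plateau followed by a further step, while that of *Slco4a1* was nearly complete at 6 h.

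The other 3 genes differed less from their PTU levels. *Desi1* was at 6.90, 5.48, 9.31 and 7.47 CPM under PTU and at 14.1, 21.5, 21.4 and 13.3 CPM at 3 h, a log2 fold change of 1.24 (SE 0.25). It stayed at that level, with log2 fold changes of 1.33 at 6 h, 1.44 at 12 h and 1.42 at 24 h. At 24 h its 4 mice were spread over 12.3, 13.5, 30.9 and 21.7 CPM, all above the PTU mice but with a wide range. *Xrcc6*, which overlaps it, was also higher after TH in WT mice, at 49.6 to 59.2 CPM under PTU and 77.1 to 89.3 CPM at 3 h without overlap, and at 55.2 to 86.0 CPM at 24 h. *Trp53inp2* was by far the most abundant of the 5, also per kilobase of exon (98.2 CPM per kb at 24 h against 6.34 for *Slco4a1*, 5.39 for *Desi1*, 3.52 for *Hr* and 0.801 for *Hcn2*). It was at 214, 243, 250 and 347 CPM under PTU and at 336, 406, 396 and 412 CPM at 3 h, where the groups overlapped, and its log2 fold change went from 0.53 (SE 0.14) at 3 h to 0.87 at 6 h and 0.97 at 24 h. From 6 h on, all treated mice were above all PTU mice, with the share over all genes taken at 24 h only.

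*Hcn2* was rare throughout, with 5, 0, 5 and 2 reads under PTU. At 3 h it had 6, 5, 3 and 26 reads, and the log2 fold change of 1.57 rested on the last mouse, since it was 0.59 without it. At 24 h there were 13, 15, 74 and 30 reads, and the ratio of summed reads to PTU was 11.5 (95% interval 6.37 to 22.8). Mouse B27 held the 74 reads, and the log2 fold change of 3.43 was 2.74 without it. In reads, the groups met at 6 h, where the lowest mouse had 5, and were apart at 12 and 24 h. Its largest values thus came late, although few reads support this course.

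**Figure D1:**
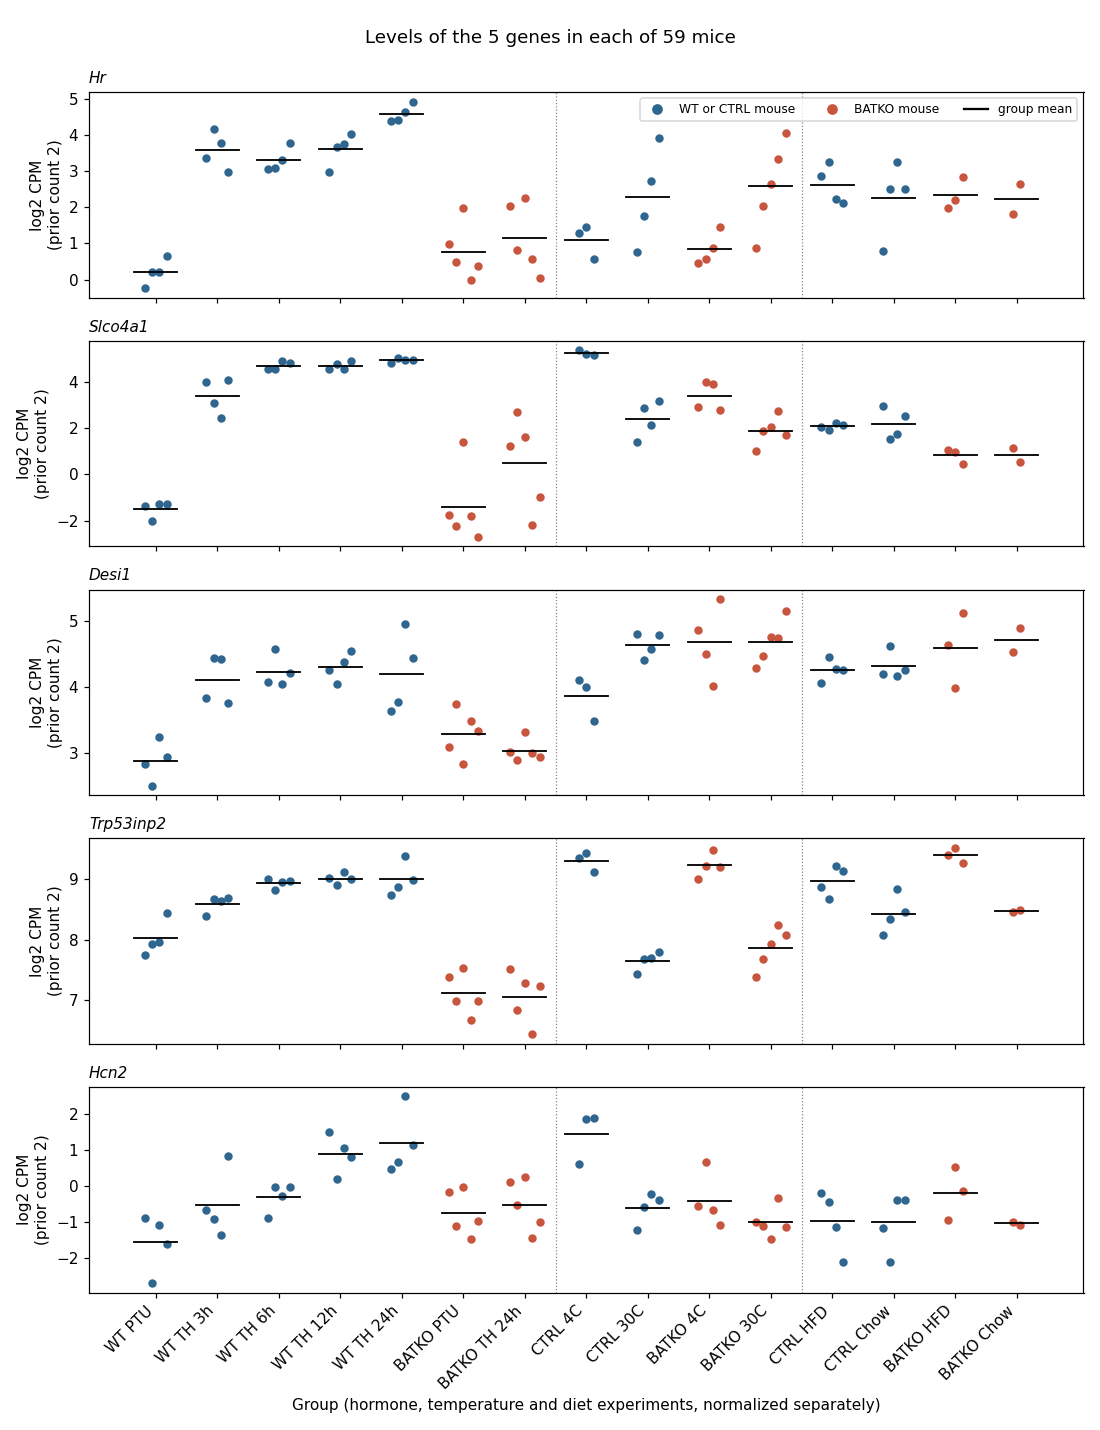
Level of each gene (log2 CPM with a prior count of 2, vertical axis) in every mouse of the 15 groups (horizontal axis), with WT or CTRL mice in blue, BATKO mice in red and the group mean as a bar. All 5 genes are higher in WT than in BATKO mice 24 h after TH, without overlap, as are 26.6% of all genes tested. *Slco4a1* and *Trp53inp2* are higher at 4 °C than in the warmer temperature group of the same genotype. At 4 °C, *Slco4a1* is lower in BATKO than in CTRL mice.

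Whether BATKO mice responded to TH was asked by comparing BATKO mice with each other. The fit held all 30 mice of the experiment, so WT mice also entered the count filter and the estimate of spread. In 16 alternatives, among them a fit of BATKO mice alone, 0 of the 5 genes were called. None of *Hr*, *Slco4a1*, *Desi1* and *Trp53inp2* passed the test 24 h after TH (quasi-likelihood test of edgeR, p adjusted by Benjamini-Hochberg over 14178 genes, threshold 0.05), and percent called over all genes was also 0% (673 genes had an unadjusted p under 0.05). *Hr* was at 1.83, 1.24, 3.77, 0.832 and 1.14 CPM under PTU and at 3.96, 1.62, 4.62, 1.33 and 0.870 CPM after TH, so that the groups overlapped, with a log2 fold change of 0.50 (95% interval -0.29 to 1.30). *Desi1* (log2 fold change -0.29, interval -0.73 to 0.14) and *Trp53inp2* (-0.04, interval -0.38 to 0.30) showed no difference beyond their spread. *Hcn2* had 3 to 13 reads under PTU and 3 to 15 after TH. Its mean normalized count was 7.19 over BATKO mice and 15.5 over WT mice, so it passed the limit of 10 only through WT mice, and its log2 fold change of 0.34 (interval -0.81 to 1.49) is a description.

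*Slco4a1* divided the BATKO mice of both groups. Under PTU it had 2, 1, 39, 2 and 0 reads in mice 2, 3, 4, 11 and 17, and after TH it had 35, 93, 40, 1 and 4 reads in mice 7, 8, 9, 10 and 15. Mouse 4 thus stood with the 3 highest treated mice, and treated mice 10 and 15 stood with the other PTU mice. The log2 fold change was 2.01 (interval 0.59 to 3.44, unadjusted p = 0.00721 and adjusted p = 0.963 by edgeR), with a range of 1.25 (without treated mouse 8) to 4.67 (without mouse 4, adjusted p = 0.149 by edgeR) when 1 mouse was left out. Mouse 4 also had the highest *Hr* level under PTU, and mice 7 and 9 had the highest *Hr* levels after TH, whereas treated mouse 8 was at 1.62 CPM of *Hr*, below PTU mouse 2. The T3 target *Klf9* was at 123 CPM in mouse 4 and at 64.2 to 93.6 CPM in the other PTU mice. After TH it was at 126, 208 and 150 CPM in mice 7, 8 and 9 and at 86.6 and 91.5 CPM in mice 10 and 15. Whether the labels of these mice hold was not tested.

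The difference between the genotypes is given without a test, because WT mice are one side of it. Under PTU, *Hr*, *Slco4a1*, *Desi1* and *Hcn2* overlapped between WT and BATKO mice, and the log2 difference of *Slco4a1* was 1.42, or -1.23 without BATKO mouse 4. *Trp53inp2* did not, at 102 to 185 CPM in BATKO mice against 214 to 347 CPM in WT mice, and 28.3% of all genes tested also lay lower in BATKO mice without overlap. At 24 h after TH, BATKO mice lay below WT mice for all 5 genes without overlap, as they did for 26.6% of the 14178 genes tested, with log2 differences of -3.27 for *Hr*, -3.65 for *Slco4a1*, -1.29 for *Desi1*, -1.91 for *Trp53inp2* and -2.06 for *Hcn2*. Without WT mouse B27 the last was -1.36, and without BATKO mouse 8 *Slco4a1* was -4.41. The difference between the 24 h responses was -5.07 (SE 1.27) for *Slco4a1*, -4.07 (SE 0.59) for *Hr*, -3.10 (SE 0.87) for *Hcn2*, -1.72 (SE 0.32) for *Desi1* and -1.01 (SE 0.25) for *Trp53inp2*. Without BATKO PTU mouse 4 it was -2.42 for *Slco4a1*, below *Hr* (-3.57) and *Hcn2* (-2.81) in size, and without WT mouse B27 it was -2.40 for *Hcn2*. Depth moved with genotype here, and so did clock genes, brown fat genes and markers of other cell types. The clock output gene *Dbp* was at 0.383 to 5.77 CPM in WT mice and 47.3 to 79.1 CPM in BATKO mice under PTU, and *Ucp1* at 4496 to 6121 CPM and 947 to 1744 CPM. The summed CPM of the 3 endothelial markers was 285 to 306 in WT mice and 366 to 412 in BATKO mice under PTU, and 273 to 306 and 375 to 512 at 24 h. At 24 h that of the general adipocyte markers was 3617 to 3897 and 6880 to 11548, and that of the nerve and Schwann cell markers was 64.3 to 87.8 and 37.0 to 56.7. Sums of the skin markers were also lower in BATKO mice without overlap in both groups, all under 4 CPM. The part of these in the differences was not tested.

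**Figure D2:**
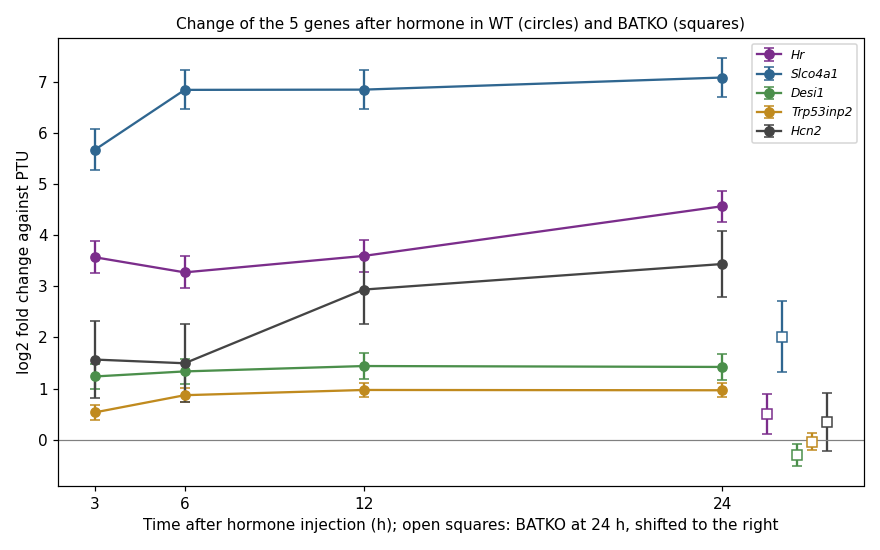
Log2 fold change against PTU (vertical axis) of each gene by time after TH in hours (horizontal axis), with SE as bars, circles for WT mice and open squares for BATKO mice at 24 h, shifted sideways. *Slco4a1* rises most in WT mice, to 7.08 at 24 h, and the squares of the other 4 genes lie between -0.29 and 0.50.

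Cold was the next question, first in CTRL mice. Of the 4 genes tested, *Slco4a1* and *Trp53inp2* rose and *Desi1* fell at 4 °C relative to 30 °C, while *Hr* did not pass the test. Percent called over all 13267 genes was 49.1% in this comparison, so a call of 3 out of 4 genes is not particular to these genes. *Slco4a1* was at 41.0, 36.6 and 35.6 CPM at 4 °C against 2.48, 7.04, 4.24 and 8.75 CPM at 30 °C, with a log2 fold change of 2.75 (SE 0.40, adjusted p = 3.87e-05 by edgeR). *Trp53inp2* was at 652, 688 and 553 CPM against 172, 206, 208 and 221 CPM, a log2 fold change of 1.64 (SE 0.18, adjusted p = 2.69e-06 by edgeR). The groups did not overlap for either gene, nor did they for 26.7% of all genes, counting those higher at 4 °C.

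*Hr* and *Desi1* did not follow them. *Desi1* was at 17.0, 15.9 and 11.0 CPM at 4 °C and at 27.7, 21.0, 23.8 and 27.5 CPM at 30 °C, without overlap as for 23.7% of all genes, counting those lower at 4 °C, with a log2 fold change of -0.78 (SE 0.27, adjusted p = 0.0249 by edgeR). This call was lost when any of 4 mice was left out in turn (CTRL 4 °C mice 2 and 5, CTRL 30 °C mice 19 and 22), with adjusted p up to 0.107. *Xrcc6*, which shares exonic bases with *Desi1*, moved the other way, with a log2 fold change of 1.87 (SE 0.17, adjusted p = 4.69e-07 by edgeR). *Hr* was at 2.26, 2.58 and 1.29 CPM at 4 °C and at 1.52, 3.20, 6.40 and 15.1 CPM at 30 °C. Among the 30 °C mice, *Hr* differed widely and rose with mouse number, from 19 to 22. Its log2 fold change was -1.67 (SE 0.75, adjusted p = 0.0767 by edgeR), with a range of -2.002 (adjusted p = 0.0301, without CTRL 30 °C mouse 19) to -0.87 (adjusted p = 0.315, without CTRL 30 °C mouse 22) when 1 mouse was left out.

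In BATKO mice, percent called over all genes was 40.3%, and 3 of the 4 genes tested were called. *Slco4a1* rose from 1.80, 3.43, 4.00, 6.54 and 3.11 CPM at 30 °C to 7.37, 15.5, 14.8 and 6.68 CPM at 4 °C, without overlap as for 16.8% of all genes (log2 fold change 1.55, SE 0.37, adjusted p = 0.00311 by edgeR). *Trp53inp2* rose from 166 to 302 CPM over the 5 mice at 30 °C to 513 to 714 CPM over the 4 mice at 4 °C (log2 fold change 1.35, SE 0.16, adjusted p = 1.05e-05 by edgeR). *Slco4a1* and *Trp53inp2* thus passed the test upward in both genotypes. *Hr* fell, with a log2 fold change of -2.19 (SE 0.66, adjusted p = 0.0151 by edgeR), from 1.65, 3.90, 6.09, 9.95 and 16.7 CPM to 1.195, 1.30, 1.65 and 2.54 CPM, although the groups overlapped. *Desi1* gave 0.05 (95% interval -0.43 to 0.53), with 16.0 to 40.4 CPM at 4 °C and 19.4 to 35.3 CPM at 30 °C, while *Xrcc6* rose (0.78, adjusted p = 6.67e-04 by edgeR).

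Only *Slco4a1* of the 4 genes tested differed between genotypes at 4 °C, where percent called over all genes was 2.16%. BATKO mice were lower, by a log2 difference of -1.77 (SE 0.39, adjusted p = 0.0279 by edgeR), from a mean of 37.7 ± 2.83 CPM (SD, n = 3) in CTRL mice to 11.1 ± 4.71 CPM (n = 4), without overlap as for 7.04% of all genes. The call did not hold without CTRL mouse 1, CTRL mouse 2, BATKO mouse 7 or BATKO mouse 12, with adjusted p of 0.0664 to 0.0896 and the same direction. At 4 °C the 7 brown adipocyte markers summed to 8584 to 16301 CPM in BATKO and 16621 to 20012 CPM in CTRL mice. The clock gene *Arntl* was at 2.71 to 3.86 and 5.42 to 10.2 CPM. Their part in the difference was not tested. *Desi1* was higher in BATKO mice by 0.88 (interval 0.31 to 1.46), but adjusted p was 0.102 by edgeR (0.0405 by DESeq2, and 0.0428 without BATKO mouse 11). *Xrcc6*, which overlaps it, was lower in BATKO mice (-0.72, adjusted p = 0.0379 by edgeR). *Hr* (-0.27) and *Trp53inp2* (-0.07, interval -0.45 to 0.32) showed no difference beyond their spread. At 30 °C, where percent called was 0.00754%, none of the 4 genes was called, and *Slco4a1* gave -0.57 (interval -1.36 to 0.22).

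The difference between the genotypes' cold responses was then tested itself, and percent called over all genes was 1.12%. None of the 4 genes was called. *Slco4a1* gave -1.20 (interval -2.35 to -0.05, unadjusted p = 0.0421, adjusted p = 0.247 by edgeR) and *Desi1* 0.82 (interval 0.08 to 1.57, adjusted p = 0.215 by edgeR), so a weaker cold response of *Slco4a1* in BATKO mice was not established. *Xrcc6* was called in this comparison, in the direction opposite to *Desi1* (-1.09, adjusted p = 0.0357 by edgeR). Brown fat markers moved with cold. The summed CPM of the 7 brown adipocyte markers, all with counts, went from 477 to 2174 at 30 °C to 16621 to 20012 at 4 °C in CTRL mice, and from 1022 to 2035 to 8584 to 16301 in BATKO mice. *Dbp* was at 11.2 to 56.6 CPM in the 7 mice at 4 °C and at 89.6 to 148 CPM in the 9 mice at 30 °C. *Noct*, a gene of rhythmic expression picked after its values were seen, was at 16.7, 57.0, 86.3 and 236 CPM in the 4 CTRL mice at 30 °C, and at 17.3 to 243 CPM in the 5 BATKO mice, in the same order of mice as *Hr* in both groups. In both groups this was also the order of the mouse numbers. The labels do not say what these numbers follow. The summed CPM of the 3 blood markers was 669 to 1449 at 4 °C and 149 to 444 at 30 °C, and that of the 4 general adipocyte markers was 8621 to 10950 and 4421 to 5600. Of 4 skin markers, 2 had counts, with sums of 5.46 to 9.56 CPM at 4 °C and 1.13 to 3.11 CPM at 30 °C, and the defining markers *Krt5* and *Krt14* were at 0 in all 16 mice. In CTRL mice, the 4 macrophage markers summed to 31.3 to 37.4 CPM at 4 °C and 39.9 to 73.5 CPM at 30 °C, and the 4 lymphocyte markers to 0.369 to 0.677 and 1.46 to 2.80 CPM. Their part in the results was not tested.

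*Hcn2* had a mean normalized count of 9.91 in this experiment, just below the limit of 10, and was therefore left out of the main test. The values of a fit without this limit, given below, are an alternative and rest on few reads. It had 12, 28 and 33 reads in CTRL mice at 4 °C and 3, 6, 8 and 6 at 30 °C, a ratio of summed reads of 5.71 (95% counting interval 3.53 to 9.56). BATKO mice had 5, 13, 4 and 3 reads at 4 °C and 2 to 7 at 30 °C. In a fit without the filter on low counts, the log2 fold change was 2.48 (SE 0.50, adjusted p = 4.20e-04 by edgeR) for cold in CTRL mice and 0.96 (adjusted p = 0.242 by edgeR) in BATKO mice, and the difference between these was not called (-1.52, adjusted p = 0.472 by edgeR). In that fit, BATKO mice at 4 °C were lower by 2.08 on the log2 scale than CTRL mice (adjusted p = 0.0367 by edgeR), although their levels overlapped.

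**Figure D3:**
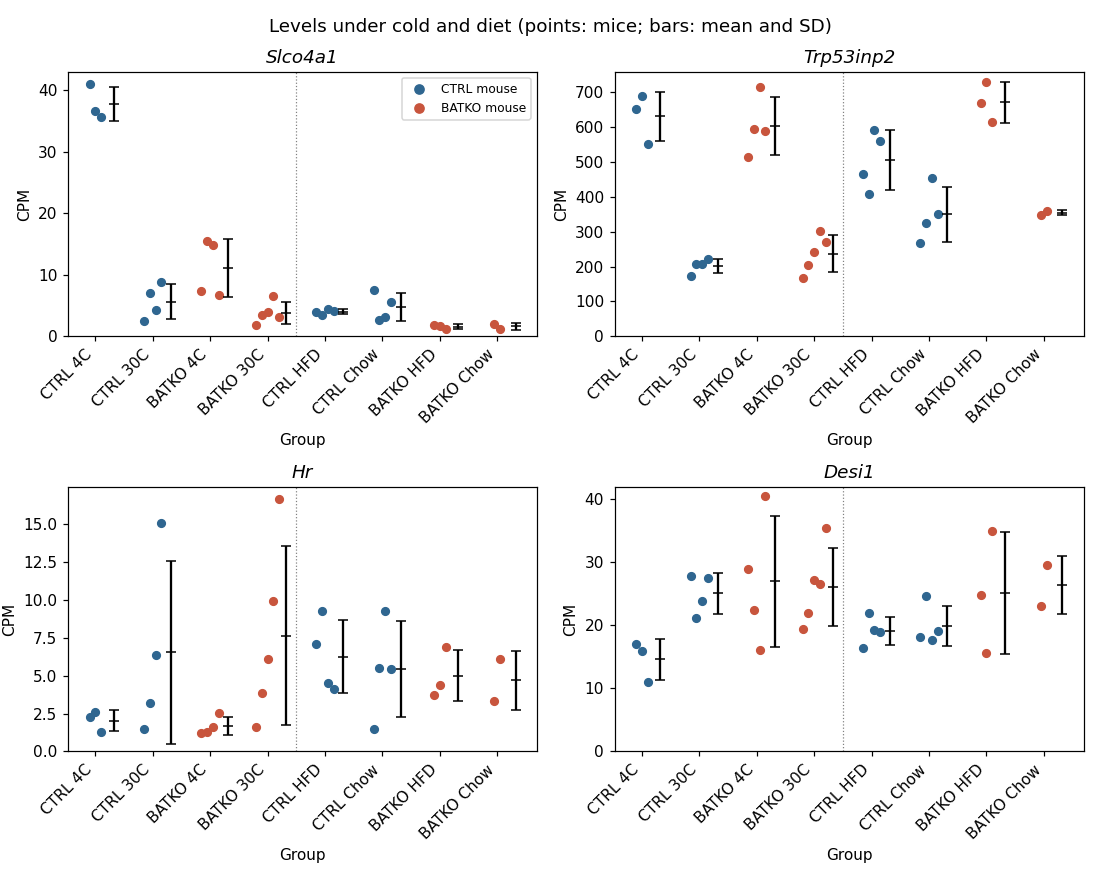
CPM (vertical axis) of 4 genes in each mouse of the temperature and diet groups (horizontal axis), in blue for CTRL and red for BATKO mice, with mean and SD beside the points. *Slco4a1* separates CTRL mice at 4 °C (35.6 to 41.0 CPM) from all others, and *Hr* ranges from 1.52 to 15.1 CPM among CTRL mice at 30 °C.

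After 3.5 days of HFD, none of the 4 genes tested was called in CTRL mice, where percent called over 12932 genes was 3.94%, or in BATKO mice, where it was 0.0696%. *Trp53inp2* came closest. It was at 465.9, 407, 593 and 559 CPM on HFD and at 268, 324, 455 and 352 CPM on chow in CTRL mice (log2 fold change 0.53, interval 0.21 to 0.86, adjusted p = 0.0655 by edgeR), and the groups overlapped. In BATKO mice it was at 669, 731 and 614 CPM on HFD and at 349 and 359 CPM on chow, without overlap as for 19.1% of all genes (0.92, interval 0.49 to 1.35, adjusted p = 0.0830 by edgeR). DESeq2 called *Trp53inp2* in both genotypes, with adjusted p of 0.0167 in CTRL and 0.00205 in BATKO mice, as did edgeR without a filter (0.00622 and 7.41e-04). With only the groups compared, edgeR called it in BATKO mice (0.0358), and with 1 mouse left out it called it in CTRL mice without HFD mouse 9 (0.0494) or without chow mouse 3 (0.0159). Other markers differed with diet. The summed CPM of the 4 macrophage markers was 53.6 to 167 on HFD and 36.6 to 39.2 on chow in CTRL mice, and 36.8 to 91.8 and 99.7 to 128 in BATKO mice. That of the 7 brown adipocyte markers was 3761 to 5609 on HFD and 2104 to 3109 on chow in BATKO mice. The lymphocyte markers were lower on HFD in CTRL mice (0.254 to 0.387 against 1.17 to 2.10 CPM). In BATKO mice the blood markers were higher on HFD (524 to 1087 against 425 to 444 CPM) and the skin markers lower (3.10 to 3.56 against 3.71 to 4.26 CPM). Their part was not tested. *Hr*, *Slco4a1* and *Desi1* gave log2 fold changes between -0.25 and 0.21 in these comparisons. The genotypes' diet responses did not differ for any of them (percent called 0%, 740 genes with an unadjusted p under 0.05 by edgeR), with 0.39 for *Trp53inp2* (interval -0.15 to 0.92).

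*Slco4a1* was lower in BATKO than in CTRL mice on both diets, but without a call. On HFD it was at 1.85, 1.72 and 1.13 CPM in BATKO mice and at 3.94, 3.51, 4.38 and 4.13 CPM in CTRL mice (log2 difference -1.34, interval -2.12 to -0.57, unadjusted p = 0.00223, adjusted p = 0.884 by edgeR). On chow it was at 1.99 and 1.22 CPM against 7.52, 2.69, 3.12 and 5.56 CPM (-1.56, interval -2.47 to -0.66, unadjusted p = 0.00224, adjusted p = 0.312 by edgeR). The groups did not overlap on either diet, in counts of 10 to 71 reads, and of all genes 2.66% lay lower in BATKO mice without overlap on HFD and 8.58% on chow. Percent called was 0% over all genes for genotype on HFD (691 genes with an unadjusted p under 0.05 by edgeR) and 0% for genotype on chow (1024 genes). On chow, the macrophage markers given above were higher in BATKO than in CTRL mice without overlap. The general adipocyte markers summed to 7008 to 7110 CPM in BATKO and 5990 to 6997 CPM in CTRL mice on HFD, and to 6622 to 7019 and 5764 to 6520 CPM on chow. The nerve and Schwann cell markers summed to 55.9 to 59.6 CPM in BATKO and 70.5 to 118 CPM in CTRL mice on chow, and the lymphocyte markers to 0.852 to 0.926 and 1.17 to 2.10 CPM. The part of these markers was not tested. *Desi1* was higher by 0.39 on HFD and by 0.41 on chow in BATKO mice, with both intervals including 0, and *Trp53inp2* by 0.41 (interval 0.06 to 0.76, adjusted p = 0.884 by edgeR) on HFD. *Hcn2* was at 0 to 14 reads in the 13 mice and was left out of the main test.

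**Figure D4:**
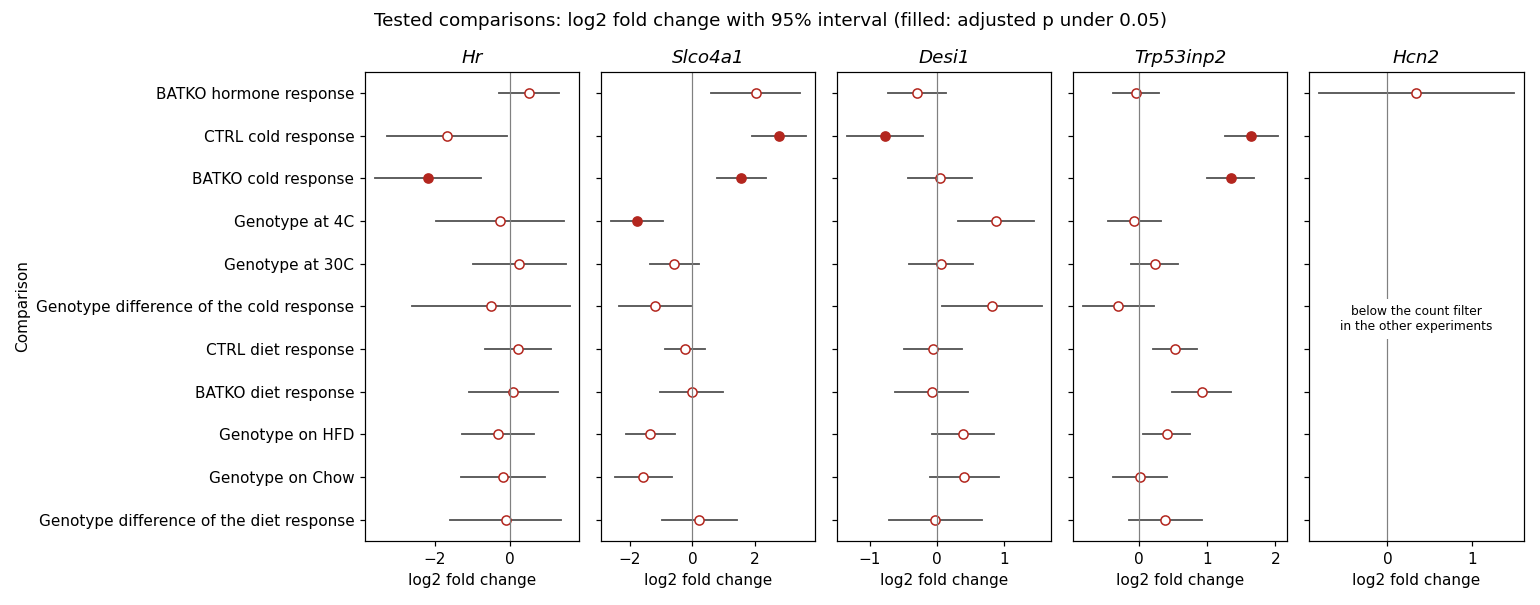
Log2 fold change (horizontal axis, with its own scale in each panel) and 95% interval of each gene in the 11 comparisons tested (vertical axis), filled where adjusted p was under 0.05. *Hcn2* is shown only for TH in BATKO mice, as a description and not a test. Filled points are seen for cold in *Slco4a1*, *Trp53inp2*, *Hr* (BATKO) and *Desi1* (CTRL), and for genotype at 4 °C in *Slco4a1*, from 2.75 down to -2.19.

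Other genes of the pathway were followed as lists. Of 12 receptors and coregulators, all tested, cold raised 4 and lowered 3 in CTRL mice, where 26.5% of all genes were called higher and 22.6% lower. It raised 2 and lowered 2 in BATKO mice, where 21.4% were called higher and 18.9% lower (medians 0.02 and 0.00 on the log2 scale, against -0.01 and -0.02 over all genes). *Rxrg*, a partner of TR, rose most, by 1.43 (SE 0.23, adjusted p = 9.32e-05 by edgeR) in CTRL and by 0.97 in BATKO mice. The coactivator gene *Ncoa2* fell most in CTRL mice (-0.95) and *Ncoa3* in BATKO mice (-0.64).

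Of 11 other known T3-induced genes, 10 were tested. Cold raised 7 and lowered 0 of them in each genotype, the same 7 in both, with medians of 1.45 in CTRL and 1.16 in BATKO mice, and *Ucp1* rose most (4.40 and 3.43). Over all genes, 26.5% were called higher in CTRL and 21.4% in BATKO mice. Among these 7 genes were *Thrsp* and *Me1* of lipid synthesis and the coactivator gene *Ppargc1a*. *Slco4a1* and *Trp53inp2* also rose with cold, while *Hr* and *Desi1* did not. *Klf9*, of the same list, was not among the 7. In CTRL mice it was at 113 to 200 CPM at 4 °C and at 116 to 155 CPM at 30 °C. At 4 °C, *Ppargc1a* was the only gene of the lists tallied here to differ between genotypes, lower in BATKO mice by 1.65 on the log2 scale (SE 0.34, adjusted p = 0.0220 by edgeR). On HFD, 4 of the 10 fell in CTRL mice and 0 rose, where 2.04% of all genes were called lower and 1.89% higher, *Fasn* of fatty acid synthesis most (-1.50, SE 0.25, adjusted p = 0.00589 by edgeR), and none was called in BATKO mice. Of 13 relatives of the 5 genes, 9 were tested under cold, and 1 fell in each genotype, *Jmjd1c*, a relative of *Hr*, in CTRL (-0.47) and *Trp53inp1* in BATKO mice (-0.89), against 22.6% and 18.9% of all genes called lower. No gene of these lists was called in any other comparison.

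For each of the 5 genes, the 2 genes with the most similar course were sought among 12275 genes, by the root mean square (RMS) difference of log2 CPM over the 15 group means after centring within each experiment. Since the group means share libraries, the values are a description. For *Trp53inp2* these were *Timm10*, a chaperone of mitochondrial protein import (RMS 0.15), and *Gm49759* (0.16), against an RMS of 0.70 of its own course. *Timm10* was at 28.01 ± 4.07 CPM (SD, n = 4) under PTU and 46.1 ± 8.63 CPM 24 h after TH in WT mice, and at 84.3 ± 21.3 CPM (n = 3) at 4 °C and 19.3 ± 1.57 CPM (n = 4) at 30 °C in CTRL mice. For *Slco4a1* they were *B430219N15Rik*, an antisense RNA gene of chromosome 10 (0.62), and *Loxl1*, a lysyl oxidase (0.85), against its own 1.99. *B430219N15Rik* went from 5.40 ± 0.734 to 138 ± 19.4 CPM in WT mice, but was at 5.64 ± 1.95 CPM in BATKO mice 24 h after TH (n = 5). Under cold it changed less than *Slco4a1* did, from 1.73 ± 0.859 to 5.27 ± 0.626 CPM in CTRL mice. *Hr* had *Slc40a1*, the iron exporter ferroportin (0.51), and *Esr1* (0.53), against its own 1.15, *Desi1* had *Zfp383* and *Spen* (0.24 and 0.25, own 0.45), and *Hcn2* had *Mcee* and *Tlcd2* (0.34 and 0.36). The low counts of *Hcn2* in the temperature and diet experiments limit the last pair.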

How the data were processed

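RNA was extracted from the BAT of single mice with Trizol, libraries were made with a SENSE total RNA kit, and reads were sequenced on a NextSeq 500. The authors aligned reads on GRCm38 with Bowtie (Bowtie2 2.3.2.2 in the submitters' processing notes), removed alignments of quality under 10, used htseqcount to sum the reads of each gene and deposited these raw counts as 1 table per experiment, with 0 columns unused here. The gene annotation and the strand setting are not given in the sources used here. Of 55341 symbols, 14 had been turned into dates and hold 0.0278 to 0.0469% of the counts.

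Total counts per mouse were 7612059 to 18073627. Levels near 0 are limited by counting, and intervals of summed reads (95%, exact binomial) cover counting error only. Within groups, all 91 pairs of libraries differed beyond sampling noise (lowest chi-square per degree of freedom 6.81). Nothing in the labels says whether mice shared a litter or cage.

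Counts were analysed in R 4.3.3 with edgeR 4.0.16 (TMM, mean normalized count above 10 over the mice of the experiment, quasi-likelihood test over all groups of the experiment, Benjamini-Hochberg adjustment, threshold 0.05), in 11 comparisons. WT time points were described in a fit of the 20 WT mice. SEs were derived from the F statistic. Alternatives were DESeq2 1.42.0, RLE size factors, no filter, a stricter mean count of 50, mitochondrial genes left out, fits restricted to the groups compared, and each mouse left out in turn, which for the WT against BATKO differences of the hormone experiment was added after seeing the data. The 5 genes and the lists were chosen with earlier results of these data known. The genes named are these 5, overlapping genes, the 2 genes most alike in course to each, and of each list the called gene with the largest change in each direction. Markers of other cell types and clock genes are given beside some results, and *Dbp*, *Arntl*, *Klf9*, *Thrsp*, *Me1* and *Ppargc1a* were named after their values were seen. The list of hormone supply genes is not reported here.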

Additional observations from a re-analysis of the deposited data

Results flagged for a closer look

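Of 60 sets of values, 1 per gene and group of 4 or 5 mice, 3 held a mouse set apart from the others by Dixon's criterion, where chance flags about 1 in 20. These were *Slco4a1* in BATKO PTU mouse 4 (2.50 CPM), *Desi1* in BATKO mouse 9 at 24 h after TH (9.82 CPM) and *Hcn2* in WT mouse B11 at 3 h after TH (1.64 CPM), each the highest of its group. For the 4 genes tested, no difference between genotypes in the response passed the test in the cold or diet experiment.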

How the results depend on the processing

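Of the values of the 5 genes recomputed under the alternatives in tested comparisons, 589 kept their direction and their side of the threshold, 11 passed it newly, 8 lost it and 40 changed sign. The 589 include all 14 values of *Hcn2* after TH in BATKO mice, where it is a description and not a test. All 40 arose when a mouse was left out, and none had passed the threshold. The ranges over mice left out were -0.16 to 0.090 for *Trp53inp2* after TH in BATKO mice, -0.22 to 0.21 for *Desi1* under cold in BATKO mice, and -0.27 to 1.03 for *Hr* and -0.077 to 0.15 for *Desi1* between genotypes at 30 °C. For diet in CTRL mice they were -0.13 to 0.58 for *Hr*, -0.43 to 0.053 for *Slco4a1* and -0.14 to 0.063 for *Desi1*, and in BATKO mice -0.28 to 0.60, -0.34 to 0.36 and -0.38 to 0.19. Between genotypes on chow they were -0.71 to 0.18 for *Hr* and -0.10 to 0.16 for *Trp53inp2*, and for the difference of the diet responses -0.49 to 0.39 for *Hr*, -0.094 to 0.61 for *Slco4a1* and -0.31 to 0.26 for *Desi1*.

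With DESeq2, genes called numbered 639 for genotype at 4 °C (2 of the 5 genes, *Desi1* with adjusted p = 0.0405), 8 at 30 °C, 645 for the difference of the cold responses, 872 for diet in CTRL mice (*Trp53inp2* of the 5), 235 in BATKO mice (*Trp53inp2* of the 5), 9 for genotype on HFD and 31 on chow. Without a filter they numbered 1280 for diet in CTRL mice (*Trp53inp2* of the 5), 336 in BATKO mice (*Trp53inp2* of the 5), 59 for genotype on HFD, 290 on chow (1 of the 5, *Slco4a1* with adjusted p = 0.0181) and 216 for the difference of the diet responses, and 2 of the 5 genes were called between genotypes at 4 °C, where *Hcn2* entered. With only the groups compared they numbered 61 for genotype at 4 °C, 321 for diet in CTRL mice, 66 in BATKO mice (*Trp53inp2*) and 114 for genotype on chow. With 1 mouse left out, genes called ranged from 53 to 565 for genotype at 4 °C (0 to 2 of the 5), 5 to 907 for the difference of the cold responses, 166 to 716 for diet in CTRL mice (0 to 1 of the 5), 0 to 9 in BATKO mice, 0 to 10 for genotype on HFD and 0 to 1 after TH in BATKO mice. The cause was not tested. In WT mice, 209 recomputed fold changes moved by less than the spread between mice and 11 by more, all 11 with a mouse left out, among them *Hcn2* at 3 h (0.59 without mouse B11). When each mouse was left out of the WT against BATKO differences of the hormone experiment, a check chosen after seeing the data, *Slco4a1* under PTU ranged from -1.23 to 1.73, and 4 other values moved by more than the spread between mice. *Hcn2* is limited by depth, with 0 to 14 reads in the diet experiment. No paired analysis was possible because the groups compared share no mouse.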
